A study of Mus musculus with 2 samples.

Results

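The genes described here are the 5 members of the mouse Ly6 family that were named for this work, Ly6a, Ly6c1, Ly6c2, Ly6d and Ly6e. They were taken by gene symbol from the deposited single-cell count tables, and all 5 were found among the 25815 genes there. Cells came from tumour-draining inguinal lymph nodes: 13 nodes of WT mice were pooled into 1 library and 9 nodes of ATG5 KO mice, which the design text calls ATG5LEC-KO, into the other. Viable CD31+ Ter119- CD45- endothelial cells and viable CD45+ Ter119- CD31- immune cells were sorted and combined before capture. The labels used here name no Cre driver, no deleted exon, no tumour and no age. With 1 library per genotype there was no replicate, so no difference between genotypes or cell classes could be tested, and every interval below is an exact 95% interval that covers counting error only.

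Ly6 proteins are small, cysteine-rich proteins of the LU domain superfamily that are held on the outer face of the cell by a glycosylphosphatidylinositol (GPI) anchor. Ly6a encodes Sca-1, the antigen used to sort blood stem cells and also carried by endothelial cells and activated lymphocytes. Ly6c1 and Ly6c2 encode the closely related antigens that together are stained as Ly6C, Ly6d is known as a marker of committed B lineage cells, and Ly6e is a broadly expressed member that restricts the entry of some viruses and promotes that of others. Several members, Ly6a, Ly6c and Ly6e among them, are known to be induced by interferons.

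On GRCm38 all 5 genes are protein-coding genes of chromosome 15. In order along the chromosome the GENCODE annotation places Ly6d at 74762056-74763620 (minus strand), Ly6e at 74955051-74959905 (plus strand), Ly6a at 74994877-74998031 (minus strand), Ly6c1 at 75044018-75048830 (minus strand) and Ly6c2 at 75108158-75111970 (minus strand). Ly6c1 and Ly6c2 are near copies. Their transcripts, 844 and 822 bases long, were 97.6% identical over 822 aligned bases, and 75 of the 251 stretches of 50 bases in the last 300 bases of Ly6c1, the end that is captured, were also present letter for letter in Ly6c2. Reads that lie within such stretches cannot be assigned to 1 of the copies, so part of the split between Ly6c1 and Ly6c2 could be uncertain. The shares assigned to the rarer copy in BECs and memory-like CD8 T cells are given below. Ly6a shared no stretch of this length with either copy in its last 300 bases, although its transcript was 87.1% identical to that of Ly6c1.

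The sequences upstream of the Ly6c copies are shown because the 2 genes were detected in different cell types. Each run is the 250 bases before the most upstream annotated start (RefSeq, GRCm38.p6), at chr15:75048838-75049087 for Ly6c1 and chr15:75111972-75112221 for Ly6c2, both on the minus strand and written 5′ to 3′. Capitals mark bases with no identical partner in the alignment of the pair, unaligned bases included. The windows are offset, so the capitals that open Ly6c1 and those that close Ly6c2 are mainly overhang. They do not show that the other copy lacks such bases.
Ly6c1: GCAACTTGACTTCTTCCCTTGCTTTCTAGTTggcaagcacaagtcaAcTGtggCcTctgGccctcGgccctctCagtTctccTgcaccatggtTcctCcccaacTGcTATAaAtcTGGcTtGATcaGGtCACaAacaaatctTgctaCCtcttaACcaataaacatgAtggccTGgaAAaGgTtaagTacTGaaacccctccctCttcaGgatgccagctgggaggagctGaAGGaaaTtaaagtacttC
Ly6c2: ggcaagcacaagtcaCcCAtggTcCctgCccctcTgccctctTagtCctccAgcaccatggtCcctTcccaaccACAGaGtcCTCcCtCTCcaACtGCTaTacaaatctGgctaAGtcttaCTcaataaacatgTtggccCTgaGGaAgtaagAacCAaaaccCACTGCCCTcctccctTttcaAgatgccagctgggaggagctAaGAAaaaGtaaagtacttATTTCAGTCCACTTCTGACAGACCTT
Over 216 aligned bases 164 were identical (75.9%), less than over the transcripts. RefSeq promoter windows (250 bases before to 50 after a start) were at hand for Ly6c1 and Ly6c2 only, 2 of the 5 members. Neither held an interferon-stimulated response element-like motif (TTTC and again TTTC after 2 free bases, or GAAA likewise for the other strand), which 1131 of 32851 windows (3.44%) did, or a GAS motif (TTCNNNGAA, its own reverse complement), which 2726 windows (8.30%) did. The absence says only that these letters are not in these windows.

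The WT library held 23649554 unique molecules (UMIs) and the KO library 23089918, and 3860 and 4155 cells entered the clusters after filters. Cells were named from marker lists that contained no Ly6 or other LU domain gene, and these genes were also kept out of the clustering, so that a class name means cells like that type by other genes. Lymphatic endothelial cells (LECs) numbered 695 (WT) and 207 (KO), blood endothelial cells (BECs) 594 and 483, B cells 1357 and 1570, and T cells 1003 and 1653. Median UMIs per cell differed between types, from 2696 (WT) and 2692 (KO) in B cells to 8191 and 7856 in LECs. Atg5, measured at its 3′ end, stood at 40.8 (WT) and 43.2 (KO) CPM in LECs, a ratio of 1.06 (0.792 to 1.40). That count does not check the deletion, whose exon the labels do not name. Both libraries mixed male and female cells, with males making up 80.4% (WT) and 67.7% (KO) of the sexed BECs and 71.0% and 50% of the sexed LECs, so genotype and sex mixture cannot be fully told apart. The libraries had 14 cell barcodes in common.

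The 5 genes were carried by different cells. BECs held 56.1% (WT) and 54.0% (KO) of all Ly6a UMIs in named cells and 88.1% and 86.0% of all Ly6c1 UMIs. T cells held 57.9% and 68.5% of the Ly6c2 UMIs, with plasmacytoid dendritic cell-like cells next in both libraries at 21.8% and 11.6%. B cells held 84.3% and 87.7% of the Ly6d UMIs. Ly6e alone was spread over every class, and LECs, BECs, B cells and T cells each held at least 9.93% of its UMIs in either library. These shares depend on how many cells of each type were sorted, so levels within classes are given next as CPM, the UMIs of a gene per 1000000 non-mitochondrial UMIs of the class.

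**Figure D1:**
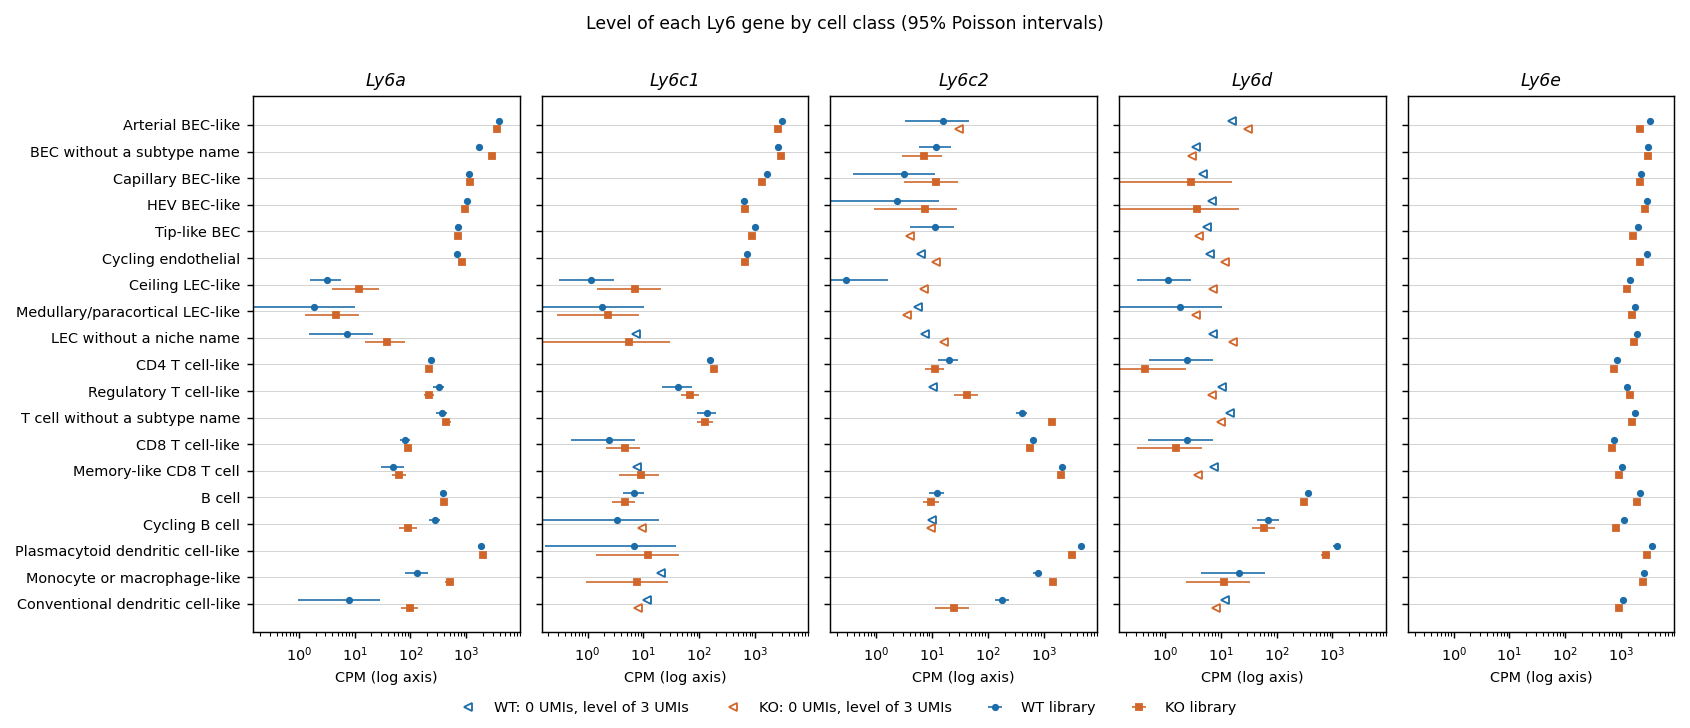
Level of each Ly6 gene (CPM, log axis) in the 19 cell classes with at least 20 cells in each library, WT and KO side by side, with exact Poisson 95% intervals (clipped where they reach below the axis). Ly6a and Ly6c1 are high in the blood endothelial classes and near 0 in lymphatic ones, Ly6c2 is high in plasmacytoid dendritic, memory-like CD8 and monocyte or macrophage classes, Ly6d in plasmacytoid dendritic and B cells, and Ly6e lies above 600 CPM in every class.

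Ly6a, the Sca-1 gene, separated blood from lymphatic endothelium. Its level was 1372 CPM (WT) and 1802 (KO) in BECs against 4.49 and 11.1 in LECs, ratios of 305 and 162. Ly6c1 did the same, at 1698 and 1792 CPM in BECs against 2.70 and 3.93 in LECs, ratios of 630 and 457. Of the members, Ly6a and Ly6c1 passed 2-fold in the same direction in both libraries, which 7.6% of the 10620 genes tested did in this direction. The LEC values rest on 25 and 17 Ly6a UMIs and on 15 and 6 Ly6c1 UMIs. They lie far below the level in barcodes of 10 to 100 UMIs, which stand for free RNA and held 221 and 216 CPM of Ly6a and 192 and 146 CPM of Ly6c1. Among LECs thinned to 2000 UMIs per cell, 0.877% of WT cells had a Ly6a UMI against 71.9% of WT BECs. The LEC values are therefore read as background and not as expression.

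Within blood endothelium Ly6a followed vessel type. Arterial-like BECs, named from genes such as Gja4, Gja5 and Bmx, had the highest level of all classes in both libraries, 3843 CPM in the 46 WT cells and 3580 in the 21 KO cells. Capillary-like BECs had 1097 and 1158 CPM and HEV-like BECs, the high endothelial venule cells through which lymphocytes enter a node, 1035 and 953. Tip-like BECs, the migrating cells at the front of a vessel sprout, had 715 and 722 CPM. The arterial-like level was 3.503 (WT) and 3.09 (KO) times the capillary-like one, past 2-fold in both libraries, where 4.81% of genes passed in this direction. The HEV-like level was 0.943 (0.835 to 1.06) of the capillary-like one in the WT library and 0.823 (0.700 to 0.966) in the KO library. The intervals of tip-like and cycling endothelial cells overlapped in both libraries. In the KO library 78 of the 251 HEV-like Ly6a UMIs came from 1 cell.

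Ly6c1 had a different order in these vessels. It was again highest in arterial-like cells in the WT library, 3102 CPM (KO 2629), and was 1671 and 1318 in capillary-like, 1013 and 899 in tip-like and 629 and 653 in HEV-like cells. HEV-like cells were lower for this gene. Their Ly6c1 level was 0.376 (0.328 to 0.431) of the capillary-like level in the WT and 0.496 (0.413 to 0.592) in the KO library. Both values were past 2-fold lower (3.92% of genes), but the KO interval reaches within 2-fold. Their Ly6a level stayed within 2-fold of the capillary-like one. In the KO library that Ly6a level rests in part on a single cell, as given above. The arterial-like Ly6c1 level was 1.86 and 2.00 times the capillary-like one and did not pass 2-fold in both libraries. No member passed 2-fold between tip-like and capillary-like cells, where 2.64% of genes were higher and 1.73% lower in both libraries.

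The same split showed cell by cell. After thinning to 2000 UMIs, 97.6% of WT arterial-like cells had both Ly6a and Ly6c1. Of HEV-like cells, 40.8% (WT) and 34.7% (KO) had both, 23.7% and 22.4% Ly6a alone, and 14.5% and 6.12% Ly6c1 alone. Of capillary-like cells, 63.8% and 58.2% had both genes. Ly6c1 was seen at this depth in 86.2% and 72.7% of capillary-like cells and in 55.3% and 40.8% of HEV-like cells, so the lower HEV-like level came with fewer positive cells.

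The largest BEC cluster, led by Atp1b1 and Cxcl12 and given no subtype name (228 WT and 169 KO cells), had 1665 and 1414 CPM of Ly6a and 2550 and 2181 of Ly6c1, above the capillary-like levels of both genes. Venous-like BECs, 14 WT and 6 KO cells, were too few to compare and had 712 and 2802 CPM of Ly6a.

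Ly6c1 and Ly6c2, although near copies, were seen in different cells. In BECs 22 of 4612 Ly6c UMIs (0.477%, 0.299 to 0.721) in the WT library and 13 of 4407 (0.295%, 0.157 to 0.504) in the KO library were assigned to Ly6c2. In memory-like CD8 T cells 0 of 846 (up to 0.435%) and 7 of 1553 (0.451%) were assigned to Ly6c1. Reads of 1 copy counted as the other in these populations are included in these shares, so the pair was separated to within them, although the counting pipeline may also have dropped reads that fit both copies. The levels of the pair over classes had a weak negative Pearson correlation, -0.35 over 38 points, which are 19 classes in 2 libraries and share libraries and depth. LEC classes and B cells were low for both genes.

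**Figure D2:**
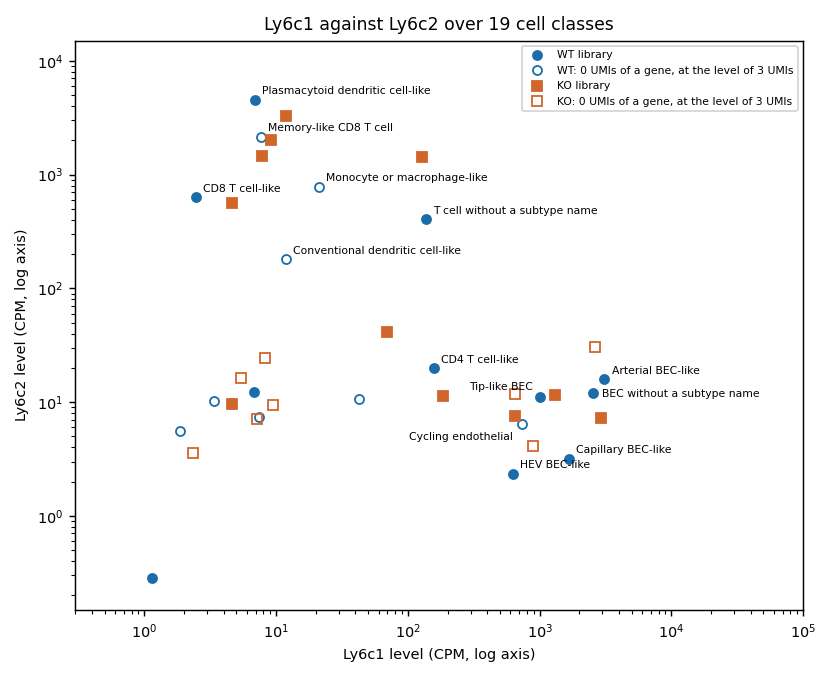
Ly6c1 against Ly6c2 level (CPM, both axes log) with 1 point per cell class and library, WT and KO in separate colours, names beside WT points above 100 CPM of either gene, and hollow points where a gene had 0 UMIs and is drawn at the level of 3. Blood endothelial classes lie along the high Ly6c1 side with few Ly6c2 UMIs, CD8, plasmacytoid dendritic and monocyte or macrophage classes lie along the high Ly6c2 side, and CD4 T cells carry Ly6c1.

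T cells divided between the copies by lineage. CD8 T cells had 632 CPM (WT) and 564 (KO) of Ly6c2 and 2.45 and 4.66 of Ly6c1. CD4 T cells had 157 and 186 CPM of Ly6c1 and 19.95 and 11.3 of Ly6c2. The CD8 level of Ly6c2 was 31.7 and 49.9 times the CD4 level (0.89% of genes passed 2-fold higher in both libraries). Their Ly6c1 level was 0.0156 and 0.0251 of it, and their Ly6a level, 80.8 and 91.6 CPM against 234 and 212, was 0.345 and 0.432 of it (1.86% of genes lower). Of the endothelial genes measured beside it, Cdh5, the endothelial cadherin gene, stood at 4.16 and 2.17 CPM in CD4 T cells against 1695 and 1774 in BECs. Pecam1, which encodes CD31, stood at 214 and 257 CPM in CD4 and 137 and 169 in CD8 T cells. The CD4 level of Ly6c1 was near that of free RNA, 192 and 146 CPM. CD8 T cells, B cells, at 6.84 and 4.60 CPM, and LECs, at 2.70 and 3.93, lay far below it in the same libraries. The part of free RNA in the CD4 level was not tested. Only a minority of CD4 T cells had the gene at matched depth, 18.2% and 21.6% of cells thinned to 2000 UMIs.

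Memory-like CD8 T cells had the highest Ly6c2 level among the T cell classes in both libraries. They were named from Ccl5, Eomes, Cxcr3, Il2rb and Nkg7, and the gamma delta receptor gene Trdc was also among their leading genes. Ly6c2 stood at 2150 CPM in the 82 WT cells and 2005 in the 169 KO cells, 3.40 and 3.56 times the level in other CD8 T cells (1.72% of genes passed 2-fold higher in both libraries). At 2000 UMIs per cell, 74.1% and 83.0% of them had a Ly6c2 UMI, with a median of 3 and 4, against 37.2% and 33.7% of other CD8 T cells. Ly6a was low in these cells, 48.3 and 63.5 CPM. Regulatory T cells had 318 and 215 CPM of Ly6a.

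Plasmacytoid dendritic cell-like cells (20 WT and 25 KO) carried 4 of the 5 members. Ly6c2 reached 4562 and 3269 CPM there, the highest level of the gene in any class of 20 or more cells, and Ly6a 1850 and 2003. Ly6d reached 1201 and 755 CPM, above its level in B cells, 369 and 305. The ratios over B cells were 4.78 and 4.93 for Ly6a, 372 and 338 for Ly6c2 and 3.25 and 2.47 for Ly6d, and 11.6% of genes passed 2-fold higher in both libraries. Ly6e was 1.62 and 1.52 times the B cell level and did not pass. Ly6d in these cells did not come with B cell levels of Cd79a, a B cell receptor chain gene, which stood at 0 and 107 CPM there against 3233 and 2717 in B cells. At 2000 UMIs per cell, 80% and 56% of the plasmacytoid dendritic cell-like cells had a Ly6d UMI, compared with 42.7% and 39.1% of B cells.

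Monocyte or macrophage-like cells (20 WT and 34 KO) had 778 and 1452 CPM of Ly6c2, known as a marker of inflammatory monocytes, and no more than 2 Ly6c1 UMIs in either library. Over conventional dendritic cell-like cells they were higher for Ly6a, by 16.9 and 5.14 times, for Ly6c2, by 4.30 and 59.1 times, and for Ly6e, by 2.39 and 2.69 times, where 7.4% of genes passed. These myeloid values hang on few cells. In the WT library 15 of the 19 Ly6a UMIs of monocyte or macrophage-like cells and 45 of the 46 Ly6c2 UMIs of conventional dendritic cell-like cells came from 1 cell each. Classes with fewer than 20 cells in a library are given as values only: plasma cells (7 WT, 14 KO) had 2389 and 1552 CPM of Ly6a and 4634 and 1994 of Ly6c2, with 260 of the 353 WT Ly6c2 UMIs in 1 cell, and natural killer or innate lymphocyte-like cells (9 and 25) had 309 and 267 CPM of Ly6c2.

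Ly6e was present in every class of 20 or more cells, between 761 CPM in CD8 T cells and 3520 in plasmacytoid dendritic cell-like cells of the WT library, and between 700 and 3016 in the KO library. BECs had 1.501 (WT) and 1.53 (KO) times the LEC level, short of 2-fold. It was the only member measured above free RNA in LECs, at 1758 and 1566 CPM against 871 and 593 in barcodes of 10 to 100 UMIs. Among LEC niches, ceiling-like cells of the outer sinus wall had 1441 and 1261 CPM, medullary or paracortical-like cells 1797 and 1594, ratios of 1.25 and 1.26. Floor-like cells had 2648 CPM in 148 WT cells, 1.84 times the WT ceiling-like level, and the KO library held only 10 such cells. Ly6e was seen in 85.5% and 80.4% of LECs and in 94.6% and 92.1% of BECs after thinning.

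Between genotypes most of the measured Ly6 values differed by less than 1.5-fold. Of 95 combinations of member and class, 56 had at least 20 UMIs over both libraries, and 6 of these were past 1.5-fold higher and 5 past 1.5-fold lower in the KO library, 19.6% of the 56. Over all genes with as many UMIs the share past 1.5-fold in either direction ran from 11.4% in B cells to 39.0% in monocyte or macrophage-like cells, so the members' share lies within the background. In the pooled populations, 1 of 3 measured members was past the fold in LECs (background 24.4%), 1 of 4 in BECs (16.2%), 0 of 5 in B cells (11.4%), 0 of 4 in T cells (12%) and 2 of 3 in myeloid cells (31.3%). The LEC member was Ly6a, at background level as said, and the BEC member Ly6c2, with 22 and 13 UMIs. The 6 class values past the fold upward were Ly6a in BECs without a subtype name (10.7% of all genes higher there), Ly6a and Ly6c2 in monocyte or macrophage-like cells (23.6%), Ly6a in conventional dendritic cell-like cells (22.7%), Ly6c1 in regulatory T cells (14.9%) and Ly6c2 in T cells without a subtype name (15%). The 5 downward were Ly6e in arterial-like cells (20.3% of all genes lower there), Ly6c2 in CD4 T cells (8.06%), Ly6c2 in conventional dendritic cell-like cells (13.7%), Ly6a in cycling B cells (14.3%) and Ly6d in plasmacytoid dendritic cell-like cells (16.0%). The intervals of Ly6c1 in regulatory T cells, 0.813 to 3.51, and of Ly6c2 in CD4 T cells, 0.312 to 1.03, included 1.

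**Figure D3:**
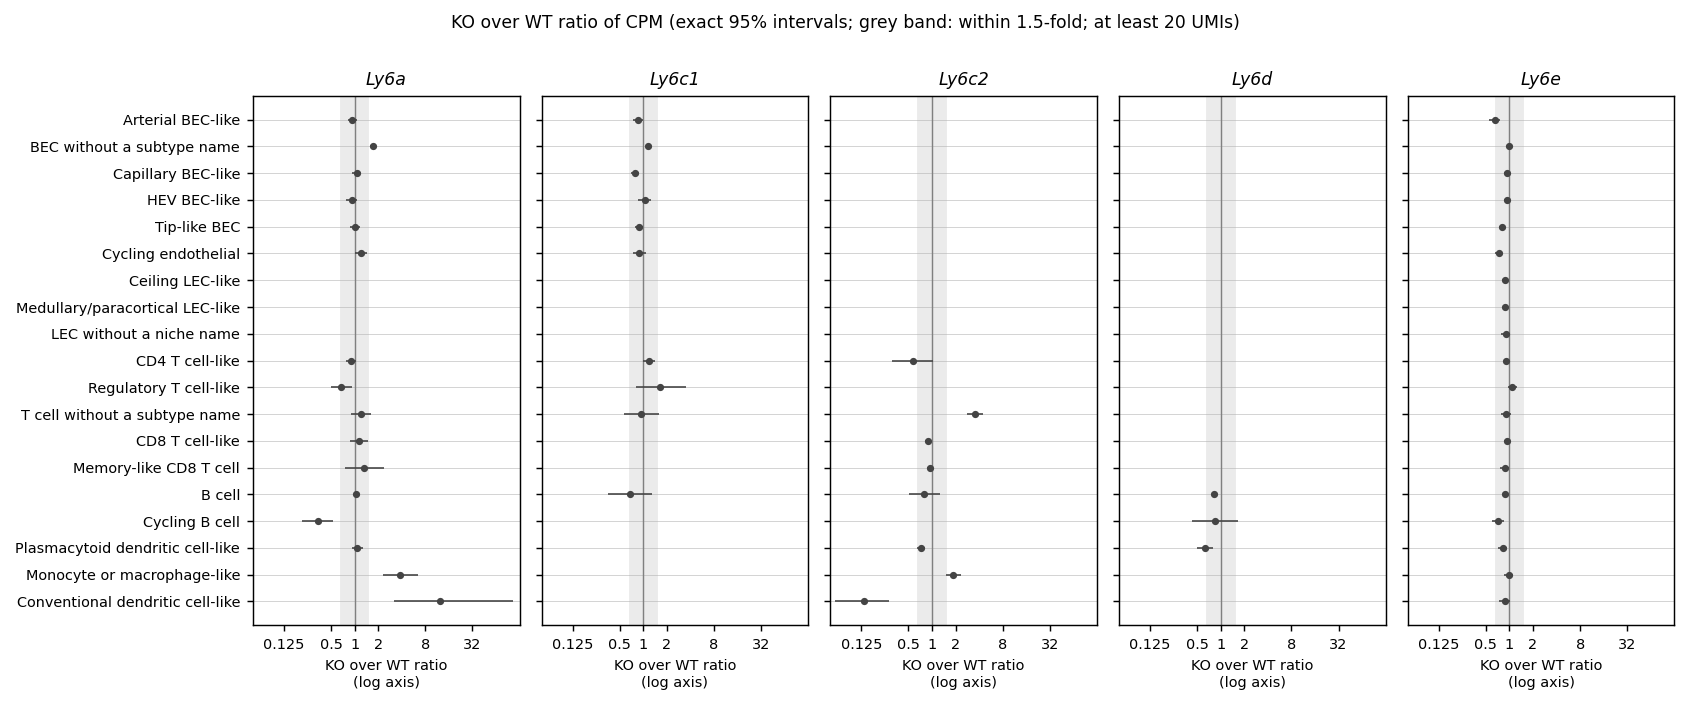
KO over WT ratio of CPM for each Ly6 gene in 19 cell classes (log axis) with exact 95% intervals, for the 56 values with at least 20 UMIs over both libraries. The grey band marks ratios within 1.5-fold. Most points lie in the band, Ly6e points lie mostly just left of 1, and the widest interval is that of Ly6a in conventional dendritic cell-like cells.

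Ly6a in BECs was 1372 CPM in the WT and 1802 in the KO library, a ratio of 1.31 (1.26 to 1.37), and Ly6c1 had a ratio of 1.06 (1.01 to 1.10). The Ly6a ratio was 1.53 in male and 0.788 in female cells. The values over all BECs turn on 1 cluster, which was led by Cxcl9, Gbp2 and Cxcl10, targets of interferon gamma, and held 57 KO cells and 1 WT cell. Without it the BEC ratio was 0.880 (0.836 to 0.926) for Ly6a, 0.811 (0.773 to 0.850) for Ly6c1 and 0.808 (0.778 to 0.839) for Ly6e, all below 1. Of the sexed cells in that cluster 41 were male and 1 female in the KO library, and the part of sex was not tested beyond the male and female values given with the alternatives.

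By subtype, Ly6a and Ly6c1 were mostly close to even. Arterial-like cells had ratios of 0.932 (0.818 to 1.06) for Ly6a and 0.848 for Ly6c1, and capillary-like cells 1.06 and 0.789 (0.705 to 0.881). HEV-like cells had 0.921 (0.786 to 1.08) for Ly6a and 1.04 for Ly6c1. A single cell held a large part of their KO Ly6a UMIs, as given above, and the ratio without it was not computed. Tip-like cells had a Ly6a ratio of 1.01, but their clusters differed: the Esm1-led cluster had 381 CPM in the WT and 716 in the KO library, a ratio of 1.88 (1.52 to 2.34), and the Prnd-led cluster 1141 and 741, a ratio of 0.649 (0.524 to 0.802). The pooled tip-like value thus averages opposite directions. In the Atp1b1-led cluster the ratios were 0.849 (0.778 to 0.926) and 0.856.

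Ly6e was lower in the KO library in each of the large populations, by a small amount: 0.891 (0.852 to 0.932) in LECs, 0.908 in BECs, 0.869 (0.842 to 0.897) in B cells and 0.910 in T cells. In female cells alone it was above 1 in BECs, at 1.08, and in T cells, at 1.14. Its only class past 1.5-fold was the arterial-like one, 3287 against 2144 CPM, a ratio of 0.652 (0.555 to 0.763). In LECs, the cells that the strain name gives as the site of the deletion, the Ly6e ratio was 0.875 (0.798 to 0.957) in ceiling-like and 0.887 (0.816 to 0.964) in medullary or paracortical-like cells, so the niches did not differ beyond their intervals. Cell sums of different niches make up the LEC total in each library, 425 of 695 WT but 65 of 207 KO cells being ceiling-like.

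Ly6d was lower in the KO library in B cells, 369 against 305 CPM, a ratio of 0.827 (0.765 to 0.894), and in plasmacytoid dendritic cell-like cells, a ratio of 0.629 (0.496 to 0.795), past 1.5-fold as 16.0% of genes were in that class. Ly6c2 in the latter cells was 0.717 (0.639 to 0.804) of the WT value. Ly6a in B cells was nearly even, 387 against 406 CPM, a ratio of 1.05. In pooled T cells Ly6c1 had a ratio of 1.31 (1.12 to 1.53), from 66.1 and 86.3 CPM. In CD4 T cells, 407 of the 1003 WT and 747 of the 1653 KO T cells, its ratio was 1.18 (0.995 to 1.41), an interval that includes 1. Ly6c2 had a ratio of 1.09 in pooled T cells, which was 0.997 without the Ifit3-led cluster described below. Memory-like and other CD8 T cells had Ly6c2 ratios of 0.933 (0.857 to 1.02) and 0.892 (0.813 to 0.9797), the second of which was 1.14 with doublets kept.

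Interferon-led clusters of 3 cell types carried more Ly6a. These pairs were chosen after their values were seen and are a description. In the B cell cluster led by A330040F15Rik and Ifit3 (79 WT and 66 KO cells) Ly6a stood at 1007 and 934 CPM against 346 and 382 in other B cells, ratios of 2.91 and 2.45 (2.42% of genes passed 2-fold higher in both libraries). Ly6d, at 1.14 and 1.15, and Ly6e, at 1.25 and 1.28, differed less. Ly6c2 was 14.2 and 9.42 times higher on 21 and 12 UMIs, 15 of the 21 in 1 cell. After thinning, 74.3% and 72.6% of the cluster's cells had a Ly6a UMI, against 38.8% and 39.7% of all B cells.

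In the Ifit3-led T cell cluster (46 WT and 50 KO cells) Ly6a stood at 456 and 555 CPM against 170 and 151 in other T cells, ratios of 2.68 and 3.68, and Ly6c1 had ratios of 3.24 and 2.36 (4.88% of genes). Ly6e had ratios of 1.58 and 1.65. Ly6c2 differed between the libraries: 623 CPM in the WT cluster, 1.26 times other T cells, and 2120 in the KO cluster, 4.29 times. In the same cluster Ccl5, a memory CD8 marker, had 1 UMI in the WT and 59 in the KO library, and Cd8a stood at 502 and 673 CPM, and their part in the Ly6c2 difference was not tested.

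In the Cxcl9-led BEC cluster, measured in the KO library alone, Ly6a stood at 5001 CPM against 1203 in other KO BECs, a ratio of 4.16 (3.92 to 4.42), Ly6c1 at 3996 against 1379, a ratio of 2.90, and Ly6e at 3791 against 2135, a ratio of 1.78. These were the highest levels of the 3 genes in any BEC cluster of 20 or more cells of that library. At 2000 UMIs per cell, 96.3% of its cells had a Ly6a UMI, with a median of 7 and a 90th percentile of 18, so the level was not set by a few cells. The single WT cell had 28 Ly6a UMIs and allows no comparison of genotypes within the cluster.

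**Figure D4:**
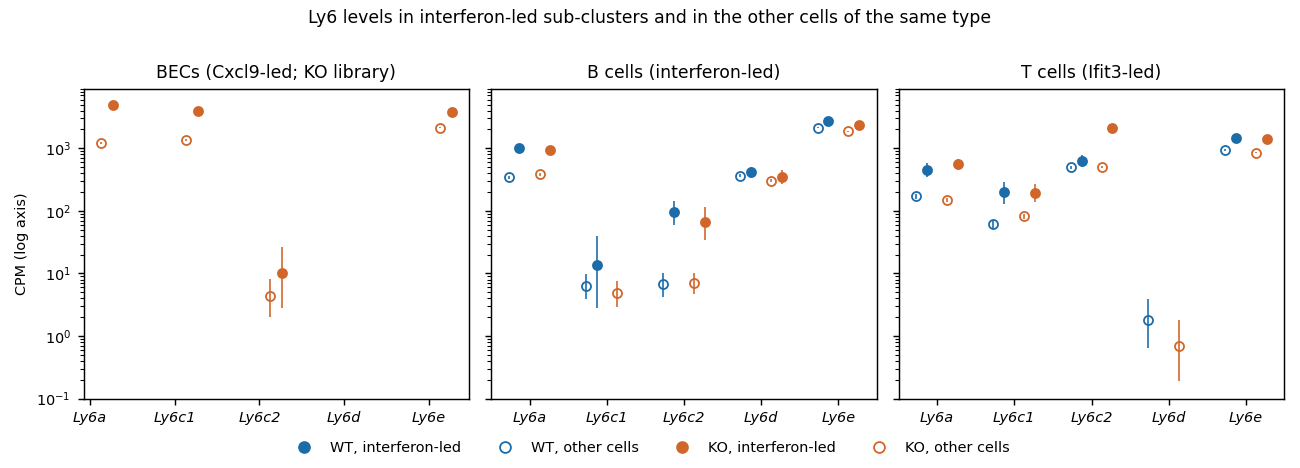
Level of each Ly6 gene (CPM, log axis) in the interferon-led cluster and in the other cells of the same type, for B cells, T cells and BECs, by library, with exact Poisson 95% intervals; values with fewer than 3 UMIs are not drawn, and the BEC cluster is shown for the KO library only. Ly6a is higher in each interferon-led cluster, with the BEC cluster at 5001 CPM, while Ly6d differs little in B cells.

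The interferon genes themselves are given beside these values. The clusters were led by genes of the same kind, so high sums there were built in. The summed level of 44 listed interferon-stimulated genes was 17089 and 14784 CPM in the B cell cluster, against 3944 and 4286 in the Bank1-led B cell cluster. It was 18791 and 16060 in the T cell cluster, against 4691 and 4047 in the St8sia6-led CD4 T cell cluster. In the BEC cluster it was 15662, against 6154 in the KO cells of the Atp1b1-led cluster. Interferon gamma targets summed to 34589 CPM in the BEC cluster, against 2286 in the KO cells of the Atp1b1-led cluster. In medullary or paracortical-like LECs the interferon-stimulated list was higher in the KO library. Of its 40 measured genes 32 were past 1.5-fold higher and 0 lower, where 11.5% of all genes were higher. The list's log2 ratios had a median of 1.23 against -0.02 for all genes. Ly6e, itself known as interferon-inducible, had the ratio of 0.887 given above, on the other side of 1 from the list. Males made up 72.6% (WT) and 41.1% (KO) of the sexed medullary or paracortical-like cells, and the part of sex was not tested. In ceiling-like LECs, where Ly6e had a ratio of 0.875, the list was near even, 3 of its 37 measured members being past 1.5-fold upward and 8 downward (median 0.04 on the log2 scale). In BECs 13 of 20 gamma targets were past 1.5-fold higher (6.58% of all genes) and 0 lower, among them Cxcl9, 8.67-fold, and Gbp2, 3.64-fold. In the Atp1b1-led BEC cluster 0 of 18 were higher and 6 lower (11.8% of all genes), and in HEV-like cells 0 of 18 higher and 8 lower (15.9%). The Ly6a ratios there were 0.849 in the Atp1b1-led cluster and 0.921 (0.786 to 1.08) in HEV-like cells. Whether the listed genes and Ly6a are linked was not tested.

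GPI anchor synthesis genes, whose products build the anchor of Ly6 proteins, were nearly even between the libraries: 2 of 25 measured were past 1.5-fold higher and 2 lower in LECs, where 11.4% and 12.9% of all genes were, 3 and 0 of 25 in BECs, 0 and 0 of 26 in B cells and 0 and 1 of 26 in T cells. Of the 10 interferon receptor and signalling genes 2 were higher in LECs, 1 higher and 1 lower in BECs and none past the fold in B or T cells. Immediate early genes, which tissue dissociation can induce, were lower in the KO library in 18 of 19 cases in pooled LECs (12.9% of all genes) and 9 of 19 in pooled BECs (9.65%). Classes differed. In ceiling-like LECs 14 of 19 were lower (1521 of all 10243 genes) and 0 higher. In medullary or paracortical-like LECs 2 of 18 were lower (999 of all 8297 genes) and 1 higher. In the Atp1b1-led BEC cluster 2 of 18 were lower (11.8%) and 0 higher, and in HEV-like cells 1 of 18 lower (15.9%) and 0 higher. The part of these genes in the Ly6 values was not tested.

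Of 42 other LU domain genes listed, 29 were in the files and 10 had at least 50 UMIs in named cells. Gpihbp1, on chromosome 15 at 75596628-75599481, whose product carries lipoprotein lipase to the capillary lumen, had another order over vessels than Ly6a: 1622 (WT) and 1417 (KO) CPM in tip-like, 870 and 927 in capillary-like, 217 and 253 in arterial-like and 28.2 and 98.7 in HEV-like cells. LECs carried Cd59a, a complement inhibitor, with 276 and 322 CPM in medullary or paracortical-like and 139 and 140 in ceiling-like cells. Its LEC total, 130 against 255 CPM, was 1.96-fold higher in the KO library, with ratios of 1.01 in ceiling-like cells, 1.16 in medullary or paracortical-like cells and 2.49 (1.65 to 3.75) in LECs without a niche name. Ly6i, which lies between Ly6e and Ly6a, stood at 442 and 373 CPM in monocyte or macrophage-like cells and 91.5 and 38.0 in HEV-like cells. The 148 WT floor-like LECs had 52.9 CPM of Ly6i, from 60 UMIs, and the 10 KO cells had 0 UMIs. Plaur, the urokinase receptor gene, stood at 807 and 678 CPM in plasmacytoid dendritic cell-like cells, 465 and 518 in B cells and 142 and 99.5 in LECs. Lynx1 was low, with 124 and 41.6 CPM in plasmacytoid dendritic cell-like cells. The remaining named genes, Ly6k, Lypd6, Lypd6b, Ly6g5b and Ly6g6d, had at most 240 UMIs each over both libraries.

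The genes whose levels over the 38 points were most like each member are given as a description of likeness over cell types. For Ly6a they were Nrp1 (Pearson r 0.79), Capg, Iqgap1, Ceacam1 and Tmod3, for Ly6c1 Plscr2, Sox17 and Sparcl1 (each 0.91), Pcdh1 and Pcdh19, and for Ly6c2 Padi2 (0.90), Jaml, Gm5547, Klrd1 and Selplg. For Ly6d they were Iglc3 and Map3k19 (each 0.95), Blnk, Fcrla and Spib, and for Ly6e Atp6ap1 (0.77), Cyfip1, Pltp, Tmbim6 and Ceacam1. With log2(CPM + 1) in place of log2(CPM + 10), 3 of the 5 genes stayed in the list of Ly6a, of Ly6c1 and of Ly6c2, 2 in that of Ly6d and 4 in that of Ly6e. Between members the closest pair was Ly6a and Ly6c1, at 0.75. Sox17 was itself in the BEC and arterial marker lists that named the classes, so its likeness to Ly6c1 was in part built in.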

How the data were processed

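The values were whole-number counts of UMIs per gene and cell barcode, deposited after the error correction of the BD Rhapsody WTA Analysis Pipeline 1.11 (reference mm10), per the file headers and the submitters' processing notes. Intronic reads were not excluded, per the file headers, and the handling of reads that fit several genes is not given in the sources used here. Gene positions and transcripts came from the GENCODE annotation of GRCm38. Cells were called from the curve of cumulative UMIs (at least 1235 UMIs in the WT, 1223 in the KO library), kept with at least 200 genes and at most 25% mitochondrial UMIs, cleared of Scrublet doublets (0.669% and 0.764%) and clustered by Leiden on 2000 variable genes and 30 components (scanpy 1.11.5). Minimum scores for class names were set after the clusters were seen. Counts were summed per class and scaled to CPM without mitochondrial genes. Intervals are exact (Poisson, conditional binomial, Clopper-Pearson). The 2-fold and 1.5-fold thresholds need at least 20 UMIs and a count of 0 is set to a floor of 3 counts. Every column belonged to a mapped sample. All 5 members were named, of the other LU domain genes those with at least 50 UMIs, of each likeness list the 5 highest, and of the context lists up to the 4 most abundant in BECs. Likeness used log2(CPM + 10) over genes with at least 200 UMIs. The members, lists and class pairs were chosen with earlier results of these data known. No test was run, since each genotype was 1 library. Alternatives changed the scaling, the filters, the clustering, the cells of either sex, the thinning depth and the pseudocount, and the closing section gives those that moved a result.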

Additional observations from a re-analysis of the deposited data

Results flagged for a closer look

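Some members differed between the genotypes in opposite directions in different cell classes, and these differences were not tested. Ly6a was higher in the KO library in BECs without a subtype name, a ratio of 1.70, in monocyte or macrophage-like cells, 3.79, and in conventional dendritic cell-like cells, 12.5, but lower in cycling B cells, 0.338. In the first of these the KO cells include the Cxcl9-led cluster. In monocyte or macrophage-like cells 76 of the 130 KO UMIs came from 1 cell, in conventional dendritic cell-like cells the WT count was 2 UMIs, and in cycling B cells 32 of the 80 WT UMIs came from 1 cell. Ly6c2 was higher in the KO library in monocyte or macrophage-like cells, a ratio of 1.87, and in T cells without a subtype name, 3.51, where all 82 WT and 413 of the 418 KO UMIs came from the Ifit3-led cluster, but lower in conventional dendritic cell-like cells, 0.136, where 45 of the 46 WT UMIs came from 1 cell. In monocyte or macrophage-like cells 100 of the 374 KO Ly6c2 UMIs came from 1 cell. That class pools a cluster led by Lyz2 and Chil3 (7 WT and 23 KO cells) with another led by Lyz2 and Lyz1 (13 and 11). The part of this mix in the Ly6a and Ly6c2 ratios was not tested.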

How the results depend on the processing

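No paired analysis was possible because each genotype was 1 library. Of 75 ratios between genotypes 39 had an interval that excluded 1, and 18 of their 395 values under alternatives pointed the other way. Without the Cxcl9-led cluster, an alternative chosen after seeing the data, the BEC ratios were 0.880 (Ly6a), 0.811 (Ly6c1) and 0.808 (Ly6e), and without the Ifit3-led cluster, chosen in the same way, the T cell ratio of Ly6c2 was 0.997. In male cells alone the ratios were 1.53 (Ly6a) and 1.13 (Ly6c1) in BECs, 0.797 (Ly6e) in LECs, 0.851 (Ly6a) and 0.818 (Ly6e) in B cells, and 0.812 (Ly6a), 1.03 (Ly6c2) and 0.842 (Ly6e) in T cells, with Ly6c2 reversed in myeloid cells at 0.411. In female cells alone they were 0.788 (Ly6a), 0.997 (Ly6c1) and 1.08 (Ly6e) in BECs, 0.974 (Ly6e) in LECs, 0.720 (Ly6d) and 0.964 (Ly6e) in B cells, and 1.71 (Ly6a) and 1.14 (Ly6e) in T cells. With equal weights for sub-classes the BEC ratios were 1.09 (Ly6a), 0.933 (Ly6c1) and 0.852 (Ly6e), and as a mean over cells 1.19 (Ly6a) and 0.973 (Ly6c1), with 1.03 for Ly6c2 in T cells. With at most 10% mitochondrial UMIs the BEC ratio of Ly6a was 1.47 and that of Ly6c2 reversed to 1.07. Median-of-ratios scaling gave 0.849 for Ly6e in LECs, and it gives no level values. At Leiden resolution 2 the Ly6a ratio of BECs without a subtype name reversed to 0.810 and that of Ly6c1 went from 1.15 to 0.855, while the tip-like ratios went from 0.887 to 1.95 (Ly6c1) and from 0.811 to 1.18 (Ly6e). With Ly6c1 and Ly6c2 summed the Ly6c2 ratios reversed to 1.05 in BECs and 1.114 in CD4 T cells. For CD8 T cells the Ly6c2 ratio, 0.892, was 1.14 with doublets kept and 1.16 at resolution 2. The 11 class ratios past 1.5-fold became 2 in male and 4 in female cells, and the 14 class comparisons past 2-fold in both libraries became 6 with at most 10% mitochondrial UMIs, 9 with LU domain genes among the variable genes, 6 in male and 4 in female cells, where fewer classes had 20 cells. With mitochondrial genes in the total 77 levels moved beyond their interval and 73 did not, whereas raw molecules moved none of 150 and a minimum of 2000 UMIs per barcode none of 147. Thinning to 1000 UMIs moved 86 shares of cells and left 55, and a minimum of 50 UMIs moved 10 list values and left 61. The cause of the other changes was not tested. Classes of 20 to 50 cells are limited by their cell number, and a few cells can set their values.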
